A study of Mus musculus with 24 samples.

Results

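Genes that mark leukocyte lineages were followed through RNA libraries of 2 stromal populations sorted from the Peyer's patch, a lymphoid organ in the wall of the small intestine. The 31 genes were fixed by name: the pan-leukocyte phosphatase Ptprc, 5 B cell genes, 2 plasma cell genes, 7 T cell genes, 10 macrophage genes, 4 genes shared by myeloid cells and 2 neutrophil genes. All 31 were among the 36528 gene models of the files. One population was fibroblastic reticular cells (FRCs), which form the scaffold of lymphoid tissue. The other was the lining cells of high endothelial venules (HEVs), where lymphocytes leave the blood. Mice were untreated or drank polyethylene glycol (PEG, an osmotic agent given to lower fluid flow) at 10% w/v for 3 days. There were 7 FRC control, 7 FRC PEG, 4 HEV control and 6 HEV PEG libraries, named here by group and library number, and each came from 1000 cells sorted per mouse. Strain, sex and age of the mice and the antibodies of the sort are not given in the sources used here, nor is it said whether FRC and HEV libraries share mice.

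As background, Ptprc (CD45) is the surface phosphatase of nearly all white blood cells, and sorts of stromal cells commonly exclude cells that carry its protein. B cells carry the receptor chains Cd79a and Cd79b, T cells signal through the CD3 chains and the kinase Lck, and plasma cells secrete antibody polymers joined by the J chain. Tissue macrophages are the usual source of complement C1q, which is assembled from the products of C1qa, C1qb and C1qc. In the Peyer's patch, lymphocytes leave the blood between HEV cells, and macrophages and follicles lie within the FRC network.

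Libraries held between 12416032 and 21710946 counted reads, except HEV PEG 16 with 3115003. Levels are given as CPM, the usual scaling of a gene's reads to the same total in every library. Stromal markers separated the labelled cell types without overlap. Summed over 10 fibroblast genes, FRC libraries held 24503 to 39956 CPM and HEV libraries 6.66 to 541.7 CPM. Summed over 12 endothelial genes, HEV libraries held 8606 to 12713 CPM and FRC libraries 191 to 462 CPM. The sum of 24 intestinal epithelium genes ran from 17.1 to 7828 CPM and varied within every group. Labels give no sequencing date, but the same index pairs come back after libraries 8 and 16, from which 3 pools were inferred. A split of the members after library 9, in both cell types, is given with the results it touches. In such bulk samples, fewer cells of a type and less RNA per cell cannot be told apart.

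Promoter windows are shown for Lck, the one member called in both comparisons of the cell types, and for C1qb and C1qc, neighbouring genes that were called under PEG. Each is the stretch of 250 bases before an annotated start site (RefSeq, GRCm38.p6, minus strand), printed 5′ to 3′. Capitals mark the letters AGGAAG or, on the other strand, CTTCCT, a string built on GGAA, the core read by ETS family factors. GGAA outside that string is left in small letters. These letters were picked after the members' levels had been seen.
Lck start site 1, chr4:129573642-129573891: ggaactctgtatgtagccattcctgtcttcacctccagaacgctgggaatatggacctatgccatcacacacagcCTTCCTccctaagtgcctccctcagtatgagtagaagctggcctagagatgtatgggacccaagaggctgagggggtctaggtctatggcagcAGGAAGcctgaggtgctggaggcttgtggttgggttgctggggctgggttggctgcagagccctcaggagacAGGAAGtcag
Lck start site 2, chr4:129558373-129558622: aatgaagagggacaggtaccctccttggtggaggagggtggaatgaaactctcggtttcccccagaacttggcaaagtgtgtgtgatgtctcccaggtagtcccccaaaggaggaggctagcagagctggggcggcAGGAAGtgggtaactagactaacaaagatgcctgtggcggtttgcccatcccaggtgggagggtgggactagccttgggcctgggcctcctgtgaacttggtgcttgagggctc
C1qb, chr4:136886201-136886450: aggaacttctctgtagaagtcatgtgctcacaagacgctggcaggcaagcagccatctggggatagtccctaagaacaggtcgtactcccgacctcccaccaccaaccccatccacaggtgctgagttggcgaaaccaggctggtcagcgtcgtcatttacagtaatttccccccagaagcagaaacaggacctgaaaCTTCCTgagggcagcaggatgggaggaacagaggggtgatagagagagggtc
C1qc, chr4:136892915-136893164: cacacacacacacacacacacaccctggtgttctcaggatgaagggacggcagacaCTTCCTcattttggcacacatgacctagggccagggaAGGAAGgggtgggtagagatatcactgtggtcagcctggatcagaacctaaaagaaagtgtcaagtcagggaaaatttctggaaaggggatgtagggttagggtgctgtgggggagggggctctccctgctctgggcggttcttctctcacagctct
The first Lck window held 3 matches, the second 1, the C1qb window 1 and the C1qc window 2. Lck start sites lay 15269 bases apart, and the counts do not say which one the reads came from. Among all 32851 windows of this length in the same table, 29.5% held the letters on either strand. Of the 31 members, 22 had an entry, with 25 windows, and 14 of these held them. C1qa had no entry. A match describes the letters only.

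**Figure D1:**
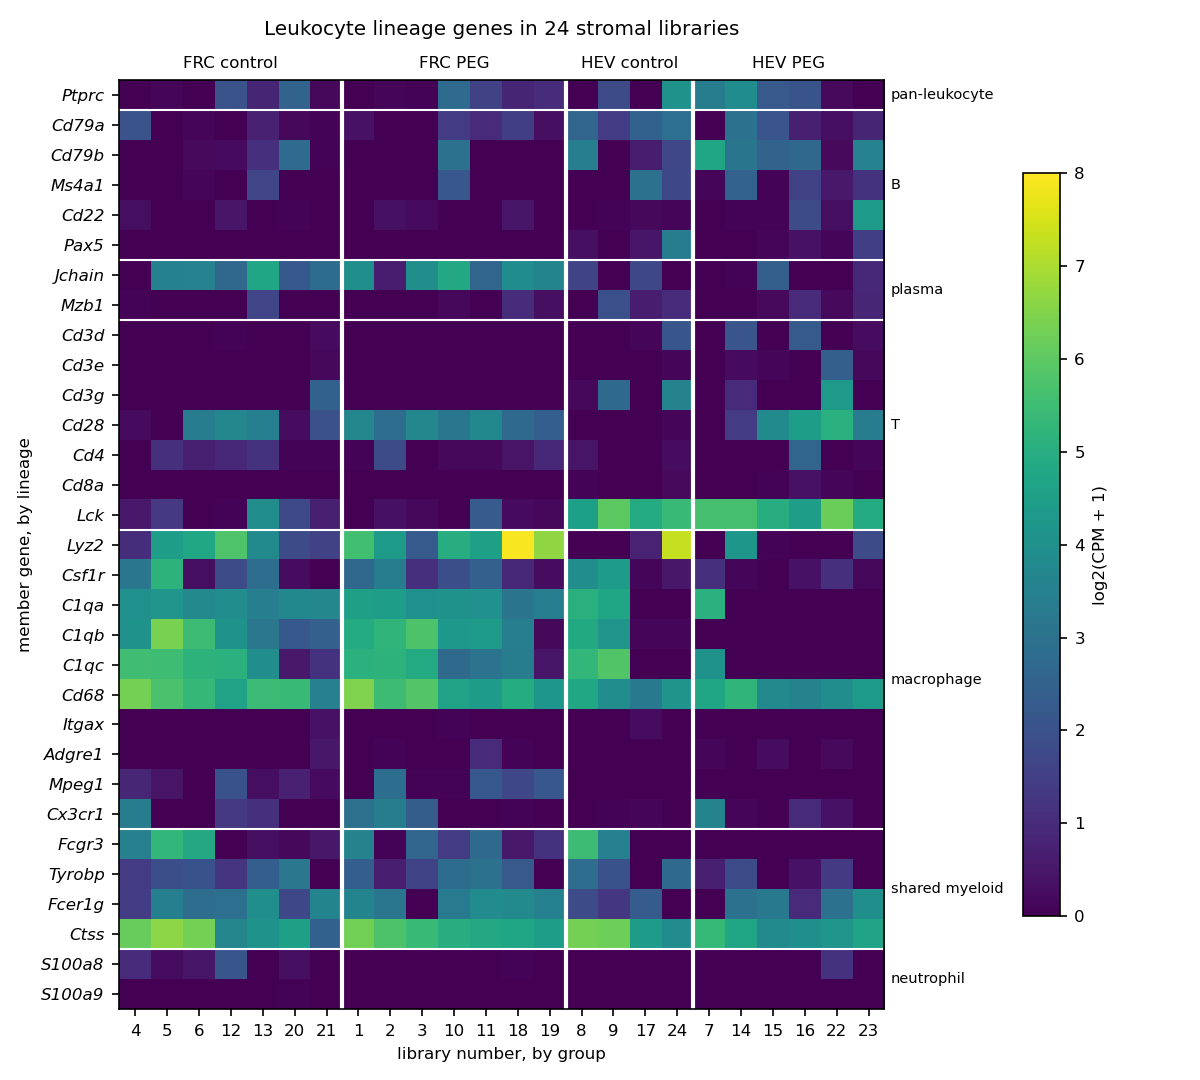
Level of the 31 members (rows, by lineage) in the 24 libraries (columns, by group and library number), as log2(CPM + 1). Lck is bright in all 10 HEV libraries, C1qa is bright in all 14 FRC libraries and in HEV libraries 7, 8 and 9, and S100a9 stays dark throughout.

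Which lineages were found differed from library to library. A lineage was counted as found where at least 2 of its members reached 1 CPM. Macrophage genes were found in 7 of 7 FRC control, 7 of 7 FRC PEG, 3 of 4 HEV control and 4 of 6 HEV PEG libraries. In HEV control 24 and HEV PEG 14, 22 and 23 that rested on 2 of the 10 members. In HEV control 24, HEV PEG 14 and HEV PEG 23 these 2 were Cd68 and Lyz2. At 0.2 CPM all 6 HEV PEG libraries counted and at 5 CPM 2 did, while all 14 FRC libraries counted at each level. Genes shared by myeloid cells were found in 7, 7, 4 and 4 of these. T cell genes were found in 3 of 7 FRC control, 2 of 7 FRC PEG, 2 of 4 HEV control and 5 of 6 HEV PEG libraries. B cell genes were found in 1, 1, 3 and 4, plasma cell genes in 1, 1, 0 and 0, and neutrophil genes in none of the 24 libraries. Macrophage and shared myeloid genes were thus found in 14 of 14 FRC libraries each and in 7 and 8 of 10 HEV libraries, and B cell genes in 7 of 10 HEV and 2 of 14 FRC libraries. For T cell genes, Lck reached 1 CPM in every HEV library, so 1 further member made the count there. In HEV PEG 15 and HEV PEG 23 that member was Cd28. Among the 14 FRC libraries, Cd28 reached 1 CPM in 11 and Lck in 4, and Cd3d and Cd3e in none. FRC control 13 held 5 lineages, more than any other library, and HEV PEG 7 held 1. Of the 10 macrophage genes, no library had all at 1 CPM.

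Ptprc itself was low and patchy. It ran from 0 to 4.82 CPM in FRC control (median 0.123) and from 0 to 5.98 in FRC PEG (median 0.767). HEV controls 8, 9, 17 and 24 held 0, 2.62, 0 and 15.8 CPM, and HEV PEG libraries 0 to 13.8 (median 3.43). All 4 groups overlapped, and each had at least 1 library with no Ptprc read. Means of log2(CPM + 1) were 0.81 in FRC control, 0.92 in FRC PEG, 1.48 in HEV control and 1.96 in HEV PEG. None of the 4 differences between groups passed an exact two-sided permutation test over all splits (unadjusted p from 0.18 to 0.85, adjusted p from 0.74 to 0.85). The largest was HEV above FRC under PEG, by 1.04 on this scale. The edgeR fits used below gave Ptprc log2 fold changes of HEV over FRC of 0.84 among controls and 1.74 under PEG. For PEG over control they gave 0.21 in FRC and -1.50 in HEV. The last was opposite in sign to the difference of the HEV means. None of these was called.

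Other genes of all leukocytes, on a list of 15 without Ptprc, did separate the cell types. Their summed level was 171 to 394 CPM in HEV libraries and 10.0 to 137 CPM in FRC libraries, with no overlap. Among controls, 4 of the 10 tested were higher in HEV, led by the actin bundler Lcp1 (log2 fold change 3.82 ± 0.60, SE) and Arhgdib (3.98 ± 0.82). Under PEG 3 of 10 were higher, with Arhgdib at 2.90 ± 0.49 and Lcp1 at 4.68 ± 1.13. Lcp1 stood at 51.5 to 64.7 CPM in HEV control and 30.7 to 60.6 in HEV PEG, against 1.54 to 13.9 in FRC control and 0 to 5.75 in FRC PEG. These genes were thus present in HEV libraries that had no Ptprc read, such as HEV controls 8 and 17.

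Between the cell types, edgeR's quasi-likelihood test with Benjamini-Hochberg adjustment called 24.6% of 15743 genes among controls and 26.8% of 14991 genes under PEG. Among controls 17 members passed the filter on low counts and 2 were called, Lck higher and Cd28 lower in HEV, beside 10.4% and 14.2% of all genes. Under PEG 15 were tested and 4 called, Lck higher and C1qb, C1qc and Jchain lower, beside 12.5% and 14.4%. Members therefore passed at shares near or below those of all genes. The simulated data changed a far smaller share of genes than was called here, and none at low levels. In them 16% of 4-fold changes were recovered among controls and 35% under PEG. These shares thus do not measure how readily a member is called. A member that missed the threshold may still differ. The PEG libraries share no sample with the controls, so the 2 comparisons use separate libraries.

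**Figure D2:**
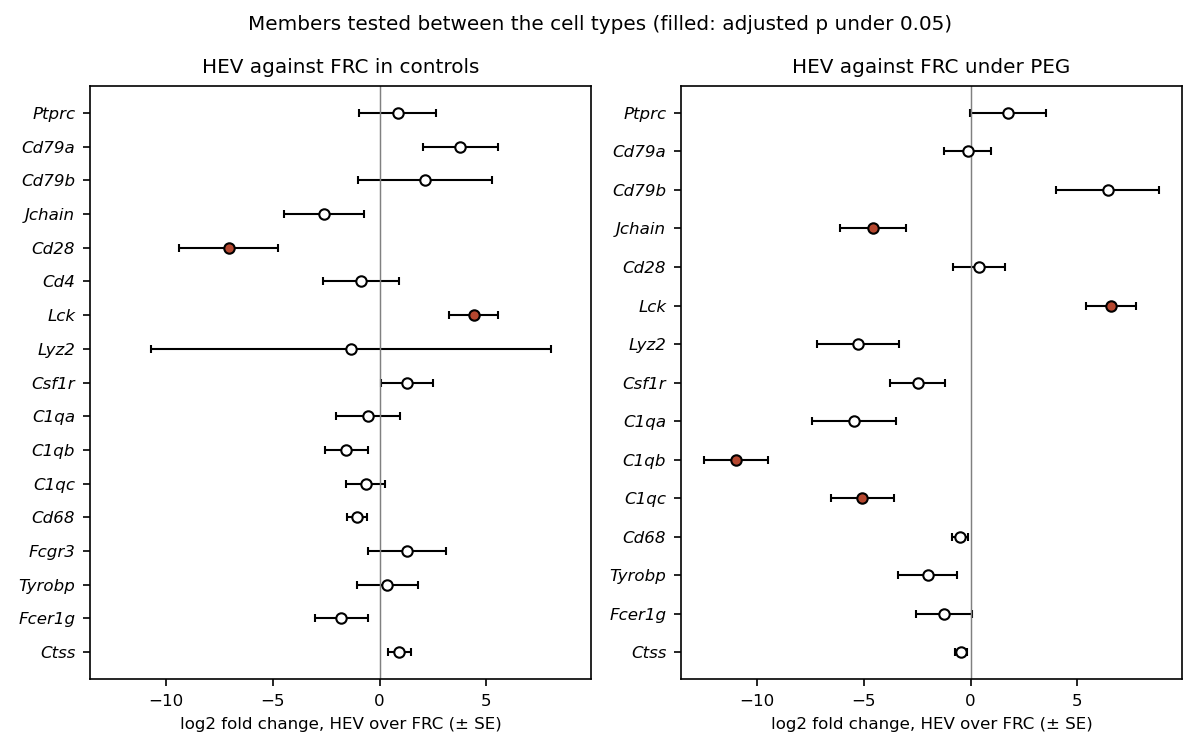
Log2 fold change of HEV over FRC with its SE for each member tested, among controls (left, 17 members) and under PEG (right, 15 members). Filled points passed at an adjusted p under 0.05 (edgeR); Lck lies to the right in both panels at 4.42 and 6.59, and Ptprc is open in both.

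Lck, the kinase that starts T cell receptor signalling, was the only member called in both comparisons. HEV controls 8, 9, 17 and 24 held 21.8, 61.9, 29.3 and 40.7 CPM, and HEV PEG libraries 21.2 to 72.6 CPM (median 39.6). FRC control libraries held 0 to 14.3 CPM (median 0.615) and FRC PEG libraries 0 to 3.93 (median 0.126). Every HEV library lay above every FRC library. Pooled reads gave a level 12.9-fold higher in HEV control than in FRC control (95% interval 11.5 to 14.5, exact binomial, counting error only) and 71.0-fold higher under PEG (56.5 to 90.4). The fitted log2 fold change was 4.42 ± 1.15 among controls (adjusted p 0.0145, edgeR) and 6.59 ± 1.17 under PEG (adjusted p 0.000675). Leaving out HEV control 8 ended the call among controls (4.11 ± 1.52, adjusted p 0.0875). Among controls, libraries 1 to 9 alone gave 5.99 ± 1.64 (adjusted p 0.0757) and libraries 10 to 24 alone 4.66 ± 1.87 (adjusted p 0.155). Under PEG, libraries 1 to 9 alone gave 8.52, with HEV PEG 7 as the only HEV library. Libraries 10 to 24 alone gave 5.64 ± 1.38 under PEG (adjusted p 0.014, edgeR).

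The CD3 chains, which form the receptor complex upstream of Lck, had more pooled reads in HEV than in FRC, except Cd3e among controls. They were not present in every HEV library as Lck was. Under PEG no FRC library held a read of them, and HEV held 74 of Cd3d, 62 of Cd3e and 252 of Cd3g, at least 37.4-fold, 31.4-fold and 127-fold higher (floor of 3 reads over the FRC PEG group). Among controls pooled Cd3d was 22.4-fold higher (8.22 to 85.4) and Cd3g 6.16-fold higher (4.75 to 8.08), both counting error only. Cd3e had 1 read in HEV control and 2 in FRC control. The CD3 reads came from few libraries. In HEV control, Cd3d was at 3.405 CPM in library 24 and at 0.068 CPM or less in the others. Cd3e was at 0.168 CPM or less in 9 of 10 HEV libraries and at 4.35 in HEV PEG 22. Cd3g reached 18.6 CPM in HEV PEG 22 and 11.0 in HEV control 24, and was at 0 reads in 5 HEV libraries. Cd3d reached 1 CPM in 3 HEV libraries and in no FRC library. Of the 10 HEV libraries with Lck, 1 had Cd3e at 1 CPM. Neither co-receptor was common: Cd8a stayed at 0.321 CPM or less in all libraries, and Cd4 reached 5.14 CPM in HEV PEG 16, where that is 16 reads. Only Cd4 among these 5 genes was tested among controls (adjusted p 0.79), and none under PEG.

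Other T cell genes, from a list of 17, passed the test in part. Among controls 1 of 6 tested was higher in HEV, the zeta chain Cd247 (log2 fold change 5.88 ± 1.29, adjusted p 0.00547, edgeR). Under PEG 2 of 7 were, Cd247 (6.77 ± 0.84) and the adhesion receptor Cd2 (4.64 ± 1.35). Cd247, which couples the receptor to its kinases, stood at 41.3 to 128 CPM in HEV control and 78.8 to 145 in HEV PEG, against 0.201 to 17.3 in FRC control and 0.184 to 7.84 in FRC PEG. Its groups did not overlap between cell types, as with Lck. Cd2 was seen in HEV PEG at 0.642 to 11.8 CPM but was at or under 4.71 CPM elsewhere.

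Cd28, the costimulatory receptor of T cells, had a pattern of its own. HEV controls 8, 9, 17 and 24 held 0, 0, 0 and 0.0695 CPM, the last being a single read. HEV PEG libraries 7, 14, 15, 16, 22 and 23 held 0, 1.62, 13.3, 21.2, 33.0 and 9.34 CPM. FRC control ranged from 0 to 12.1 CPM (median 2.95) and FRC PEG from 4.30 to 12.2 (median 7.84). Thus HEV control libraries were near 0 while 5 of 6 HEV PEG libraries and all FRC PEG libraries exceeded 1 CPM. Pooled reads put HEV control 315-fold below FRC control, with a 95% interval of 56.3 to 12460 that shows how little 1 read fixes. Among controls the fitted change was -7.08 ± 2.34 (adjusted p 0.0454, edgeR). The call ended without any one of HEV controls 8, 9, 17 or 24 (adjusted p up to 0.127), and without FRC control 6, 12, 13 or 21 Cd28 was not tested. Libraries 10 to 24 alone gave -5.14 ± 2.05 (adjusted p 0.153). Under PEG the cell types did not differ detectably (0.38 ± 1.22, adjusted p 0.867). Cd28 is expressed with Cd3e in T cells, yet 15 libraries had Cd28 at 1 CPM without Cd3e and 1 had both.

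The 2 plasma cell genes differed from each other. Jchain, which links IgA and IgM polymers, ran from 0 to 25.3 CPM in FRC control (median 6.03) and from 0.540 to 27.5 in FRC PEG (median 13.9). HEV controls 8, 9, 17 and 24 held 2.09, 0, 2.32 and 0 CPM, and HEV PEG libraries 0 to 4.31 (median 0.028). Ranges overlapped, since FRC control 4 had no read and FRC PEG 2 had 0.540 CPM. Under PEG Jchain was lower in HEV (-4.59 ± 1.55, adjusted p 0.0411, edgeR), 10.1-fold over pooled reads (8.21 to 12.4). That call held in 3 of 13 fits with a library left out, those without FRC PEG 2, FRC PEG 11 or HEV PEG 15, and adjusted p reached 0.128 in the others. It also ended with no covariate (adjusted p 0.0516, edgeR) and in libraries 10 to 24 alone (-3.94 ± 1.46, adjusted p 0.0812). Libraries 1 to 9 alone, with HEV PEG 7 as the only HEV library, gave -10.4. DESeq2 gave no adjusted p for Jchain. Among controls it was not called (-2.62 ± 1.87, adjusted p 0.365). Mzb1, a chaperone of antibody secretion, stayed at or under 2.91 CPM and passed 1 CPM in 4 libraries. Of the 12 FRC libraries with Jchain at 1 CPM, 2 also had Mzb1. On a list of 8 other plasma cell genes, 1 of 6 tested was higher in HEV among controls (the regulator Prdm1, 4.11 ± 1.17). Under PEG 2 of 5 were higher and 1 lower, with the cytokine-binding proteoglycan Sdc1 at -2.05 ± 0.40 and the polymerase Tent5c at 2.86 ± 0.78.

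**Figure D3:**
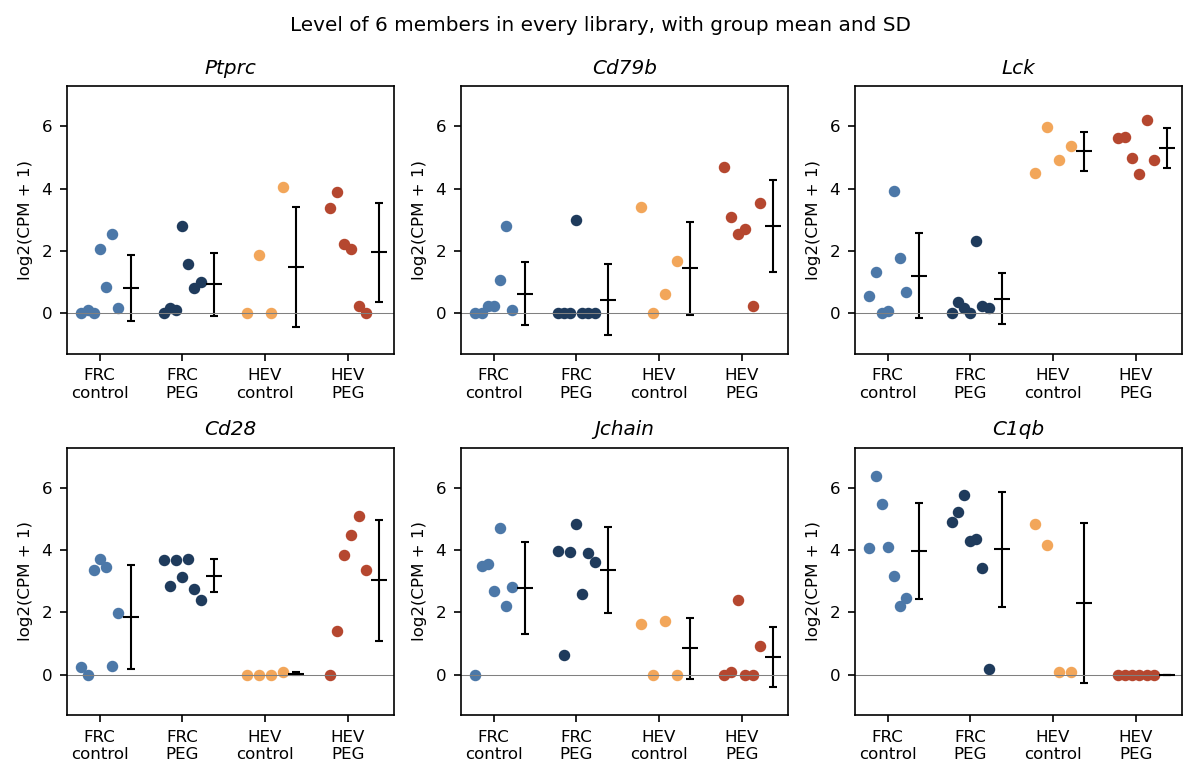
Level of 6 members as log2(CPM + 1), with 1 point per library and the group mean and SD beside it. Lck separates HEV from FRC without overlap, Cd28 is near 0 in the 4 HEV controls and C1qb is at 0 in the 6 HEV PEG libraries.

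B cell genes were low and varied between libraries of a group. Cd79a, a signalling chain of the B cell receptor, was at 5.13, 1.63, 4.57 and 6.60 CPM in HEV controls 8, 9, 17 and 24 and at 0 to 6.99 in HEV PEG (median 0.702). FRC control libraries held 0 to 3.17 CPM (median 0.0805) and FRC PEG libraries 0 to 1.77 (median 0.322). Its partner Cd79b was at 9.74, 0, 0.546 and 2.22 CPM in the same HEV controls and at 0.158 to 25.0 in HEV PEG (median 6.50). In FRC control Cd79b ran from 0 to 5.89 CPM (median 0.161), and in FRC PEG it was at 0 in 6 of 7 libraries and at 7.00 in library 10. Neither passed the test: Cd79a differed by 3.78 ± 1.77 among controls (adjusted p 0.153, edgeR) and Cd79b by 6.43 ± 2.42 under PEG (adjusted p 0.066). Both depended on the fit. Cd79a passed among controls without FRC control 4 (adjusted p 0.0287) and with limma-voom (adjusted p 0.00989). Cd79b passed under PEG with DESeq2 (adjusted p 4e-05), limma-voom (adjusted p 0.00583) and no filter on low counts, and without HEV PEG 14, 15 or 16 (adjusted p 0.0442, 0.0395 and 0.0408). Both chains reached 1 CPM in 5 libraries, 1 alone in 9. HEV PEG 7 shows the split, with 25.0 CPM of Cd79b and no Cd79a read.

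The remaining 3 B cell genes each peaked in a different library. Ms4a1 (CD20) reached 6.96 CPM in HEV control 17, Cd22 reached 19.5 in HEV PEG 23 and the regulator Pax5 reached 9.38 in HEV control 24. Pax5 had no read in any of the 14 FRC libraries, which allows a pooled level of up to 0.0270 CPM in FRC control and 0.0245 in FRC PEG (3 reads over the group). On a list of 14 other B cell genes, 12 were among the gene models. Among controls 1 of 8 tested was higher in HEV, the coactivator Pou2af1 (log2 fold change 9.67, adjusted p 0.000112, edgeR). Under PEG 2 of 8 were higher and 2 lower, with Pou2af1 at 9.58 ± 1.13 and Cd72 at -3.35 ± 0.55. Called or not, 3 of the 8 had a positive change among controls (median -0.71) and 5 of 8 under PEG (median 2.68). Pou2af1 stood at 6.47 to 22.2 CPM in HEV control and 4.16 to 25.3 in HEV PEG, and at 0.0607 CPM or less in every FRC library. Like Lck, it was in all HEV libraries, including HEV control 9 and HEV PEG 7 and 22, in which B cell genes were not counted as found. Of 7 germinal centre genes, 1 of 3 tested among controls and 1 of 4 under PEG passed, in each case S1pr2, lower in HEV (-3.38 ± 1.13 and -3.02 ± 0.84).

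Complement C1q genes had reads in all 14 FRC libraries, C1qa within a narrow range and C1qb and C1qc over a wide one. C1qa, given here although chosen after its values were seen, was at 9.75 to 17.0 CPM in FRC control and 7.38 to 22.4 in FRC PEG. C1qb was at 3.61 to 82.2 CPM (median 15.7) and 0.126 to 53.8 (median 19.7) in these groups, and C1qc at 0.468 to 46.1 (median 33.2) and 0.379 to 35.4 (median 9.50). In HEV they were found in 3 libraries only. HEV controls 8, 9, 17 and 24 held 32.9, 25.4, 0 and 0 CPM of C1qa. They held 28.0, 17.0, 0.0682 and 0.0695 CPM of C1qb, and 38.5, 56.3, 0 and 0 CPM of C1qc. HEV PEG 7 held 33.2 CPM of C1qa and 16.4 of C1qc but no C1qb read, and the 5 other HEV PEG libraries held no read of any of them. All HEV libraries with C1q thus carry numbers 7 to 9, and HEV libraries numbered 10 to 24 had 0 reads of C1qa and C1qc and 2 of C1qb among 97105696.

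Under PEG, C1qb was lower in HEV than in FRC (log2 fold change -11.0 ± 1.50, adjusted p 0.000588, edgeR). With 0 reads against 2990, the pooled level was at least 657-fold lower (floor of 3 reads over the HEV PEG group), and the ranges did not overlap. C1qb was called in the 7 fits with a library left out that tested it, and the low-count filter removed it from the other 6. C1qc was also lower (-5.07 ± 1.46, adjusted p 0.0187) and C1qa was not called (-5.47 ± 1.97, adjusted p 0.0552). C1qa did pass with DESeq2, limma-voom, no filter on low counts and libraries 1 to 9 against 10 to 24 as covariate. It also passed without FRC PEG 1, 2 or 3. HEV PEG 7 moved these values: without it C1qc fell by 9.53 ± 1.43 (adjusted p 0.00133) and C1qa by 10.6 ± 1.07 (adjusted p 0.000115). With no covariate the C1qc call was lost (-2.59 ± 1.62, adjusted p 0.288). In PEG libraries 10 to 24 alone the members called were C1qa and Lck, and C1qb and C1qc were not called. Within PEG libraries numbered 1 to 9, HEV PEG 7 was the only HEV library. The change there was 0.79 for C1qa, -0.97 for C1qc and -12.4 for C1qb. Among controls none was called (C1qa -0.54 ± 1.49, C1qb -1.56 ± 1.00, C1qc -0.66 ± 0.90). Within controls of libraries 10 to 24 alone, C1qa (-10.6 ± 1.66, adjusted p 0.0088) and C1qb (-5.61 ± 1.43, adjusted p 0.0408) were lower in HEV and C1qc was at -6.75 ± 1.79 (adjusted p 0.0567). The difference between libraries 1 to 9 and 10 to 24 in this contrast was not tested.

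Fibroblast genes were read in the same HEV libraries. HEV libraries 7, 8 and 9, the ones with C1q, had a summed fibroblast level of 6.66, 45.2 and 541.7 CPM. The 7 HEV libraries without it had 8.67 to 62.6 CPM. HEV control 9 was thus the highest HEV library on this sum and HEV PEG 7 the lowest, and both held C1qa and C1qc. The part of other cells in these values was not tested further.

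**Figure D4:**
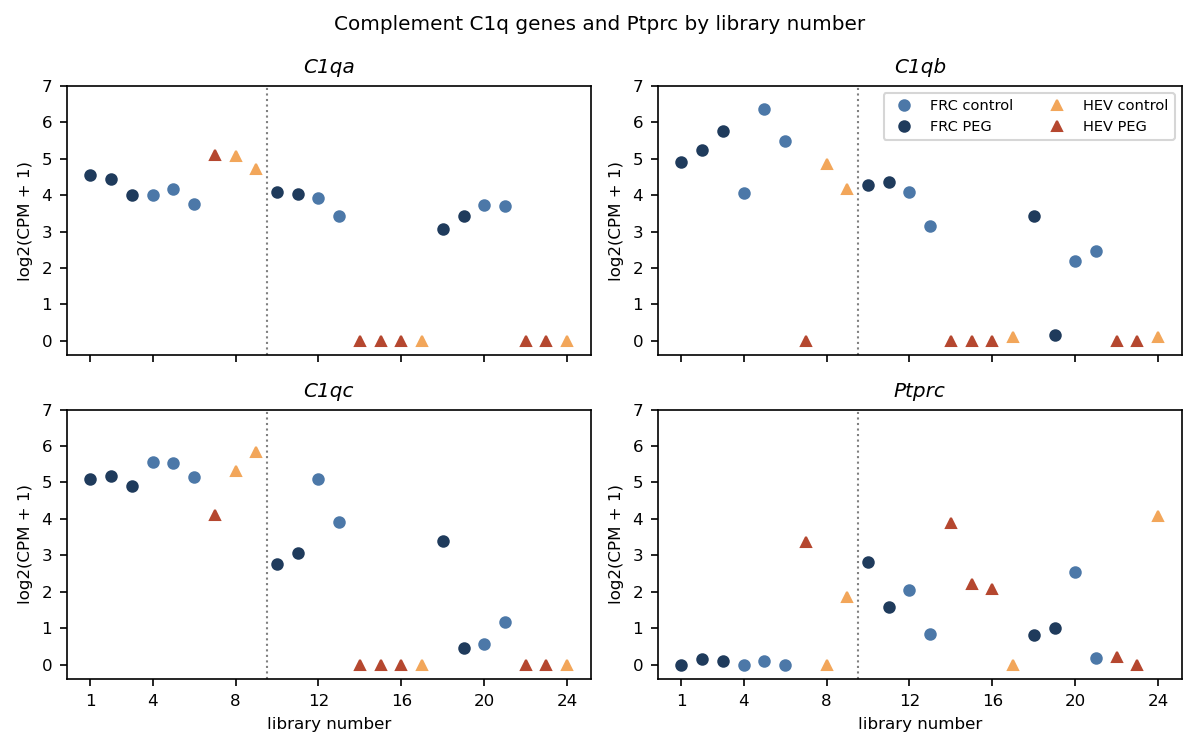
Level of C1qa, C1qb, C1qc and Ptprc as log2(CPM + 1) against library number, with FRC as circles and HEV as triangles; the dotted line divides libraries 1 to 9 from 10 to 24. The HEV triangles of C1qa and C1qc lie with the FRC circles in libraries 7 to 9 and at 0 afterwards, while Ptprc of FRC is near 0 in libraries 1 to 6.

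C1q and Ptprc went apart in the FRC libraries. The 6 FRC libraries numbered 1 to 6 held 1784 reads of C1qa, 4207 of C1qb and 3724 of C1qc, together with 6932 of the lysosomal protease Ctss and 6208 of Cd68, but 4 reads of Ptprc among 100659026. The 8 FRC libraries numbered 10 to 24 held 305 Ptprc reads among 132618515. Of the 14 FRC libraries, 5 had both C1qa and Ptprc at 1 CPM and 9 had C1qa alone. Each side of this split holds both treatments (3 control and 3 PEG libraries in the first). Between libraries 1 to 9 and 10 to 24 of FRC, 4.71% of genes with a mean of 1 CPM or more had ranges that did not overlap, and 2 of 17 members did: Ctss, higher in the first, and Ptprc, lower. In HEV the share was 11.1%, and 4 of 21 members, Csf1r, C1qa, C1qc and Ctss, were higher in libraries 7 to 9. This split was noticed in these data, and its members' counts are a description.

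Cd68 and Ctss, both lysosomal proteins of phagocytes, were present in all 24 libraries. Cd68 was at 26.3, 14.0, 8.39 and 16.8 CPM in HEV controls 8, 9, 17 and 24 and at 10.9 to 36.6 in HEV PEG (median 16.8). In FRC control it ran from 10.3 to 79.5 CPM (median 41.8) and in FRC PEG from 17.4 to 87.1 (median 30.0). Ctss was at 78.6, 73.7, 20.1 and 13.5 CPM in the same HEV controls and at 12.9 to 40.1 in HEV PEG (median 20.7), against 4.55 to 96.0 in FRC control (median 22.6) and 21.6 to 76.9 in FRC PEG (median 30.9). Neither differed between cell types after adjustment: Cd68 by -1.06 ± 0.47 among controls (adjusted p 0.129, edgeR) and -0.50 ± 0.39 under PEG (adjusted p 0.411), Ctss by 0.93 ± 0.52 (adjusted p 0.237) and -0.46 ± 0.29 (adjusted p 0.296). Without FRC control 20, Ctss passed among controls (adjusted p 0.0434).

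The defining surface genes of macrophages and dendritic cells were sparse next to these. Itgax (CD11c) reached 0.307 CPM at most, Adgre1 (F4/80) 0.937 and the perforin-like gene Mpeg1 6.43, with no Mpeg1 read in any HEV library. Csf1r, the receptor that macrophages need to survive, ran from 0 to 34.7 CPM and reached 1 CPM in 4 of 7 FRC control, 5 of 7 FRC PEG, 2 of 4 HEV control and 2 of 6 HEV PEG libraries. Cx3cr1, the fractalkine receptor, peaked at 11.0 CPM in HEV PEG 7. On a list of 14 other macrophage genes, 4 were tested among controls, of which the endotoxin co-receptor Cd14 was higher in HEV (2.17 ± 0.49) and the clearance receptor Mertk lower (-2.57 ± 0.75), and 0 of 5 passed under PEG. Of 10 dendritic cell genes 1 of 3 was higher in HEV among controls (Zbtb46, 2.41 ± 0.48) and 3 of 5 under PEG, led by Clec9a (9.71 ± 1.10) and Zbtb46 (2.72 ± 0.38). Clec9a stood at 0.570 to 33.2 CPM in HEV control and 5.81 to 25.3 in HEV PEG, and at 0.554 CPM or less in FRC. Zbtb46 was at 63.8 CPM or more in every HEV library and at 49.9 CPM or less in FRC. Which cells gave these reads was not tested.

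Genes shared by myeloid cells fell between these extremes. Fcer1g, the common chain of Fc receptors, was at 2.53, 1.40, 4.02 and 0 CPM in HEV controls 8, 9, 17 and 24 and at 0 to 14.7 in HEV PEG (median 6.94). FRC control ran from 1.76 to 14.8 CPM (median 6.60) and FRC PEG from 0 to 13.6 (median 10.5), and no comparison called Fcer1g (adjusted p 0.353 among controls and 0.552 under PEG, edgeR). Its adaptor relative Tyrobp reached 8.03 CPM, and both were at 1 CPM in 14 libraries. Fcgr3, an Fc receptor, resembled C1qb: it reached 43.8 CPM in HEV control 8 and 10.3 in HEV control 9, had no read in HEV controls 17 and 24 and none in the 6 HEV PEG libraries, and reached 38.4 CPM in FRC control 5. Under PEG the ranges of Fcgr3 did not overlap between the cell types. Ranges that did not overlap were found for 16.4% of genes with a mean of at least 1 CPM under PEG and for 3 of 20 such members (Lck, C1qb and Fcgr3), and for 19.0% of genes and 1 of 19 members (Lck) among controls.

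Lyz2, lysozyme of macrophages and neutrophils, was highest where its near-identical paralog Lyz1, the lysozyme of Paneth cells, was highest. Lyz2 ran from 1.06 to 54.3 CPM in FRC control (median 12.8) and from 3.82 to 242 in FRC PEG (median 30.99). HEV controls 8, 9, 17 and 24 held 0, 0, 0.682 and 158 CPM, and HEV PEG libraries 0 to 17.9 (median 0.0251). The 3 libraries above 100 CPM were FRC PEG 18, FRC PEG 19 and HEV control 24, with 242, 101 and 158 CPM of Lyz2 beside 6977, 2035 and 4389 CPM of Lyz1. In the other 21 libraries Lyz1 was at 54.0 CPM or less. These 3 libraries held 7828, 4911 and 1193 CPM of the summed epithelial genes, while HEV PEG 16, 22 and 23 held 3523, 3048 and 5294 CPM with 0, 0 and 2.56 CPM of Lyz2. Reads that the paralogs share cannot be told apart here, and the part of Lyz1 in the Lyz2 counts was not tested. Lyz2 was not called between the cell types (-1.35 ± 9.36, adjusted p 0.946, among controls and -5.30 ± 1.92, adjusted p 0.0615, under PEG, edgeR). Under PEG it passed in 7 of 23 alternatives, among them DESeq2 (adjusted p 0.0014), limma-voom (adjusted p 0.00101), no covariate (adjusted p 0.0484) and fits without FRC PEG 11 (adjusted p 0.0495) or HEV PEG 14 (adjusted p 0.000249).

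**Figure D5:**
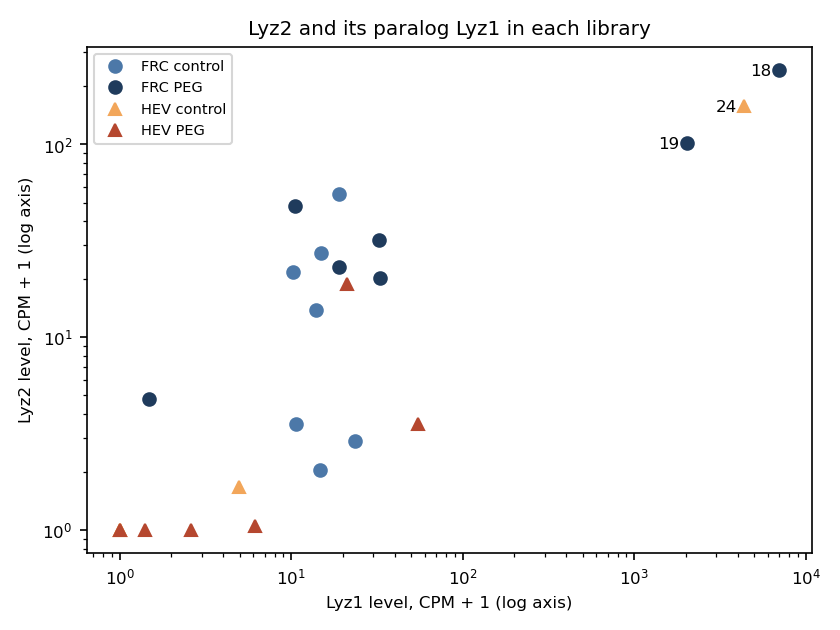
Lyz2 against Lyz1 in each of the 24 libraries, both as CPM + 1 on log axes, by group. Libraries 18, 19 and 24, numbered in the plot, lie alone at the upper right with 242, 101 and 158 CPM of Lyz2.

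The 2 neutrophil members were nearly without reads. S100a9 had 1 read in all 24 libraries, in FRC control 20. S100a8 was at 3.41 CPM in FRC control 12 and 1.26 in HEV PEG 22 and under 1 CPM elsewhere, with no read in the 4 HEV controls. Neither was tested in any comparison. The 11 other neutrophil genes had more: their summed level was 0.896 to 19.8 CPM in FRC control (median 4.04) and 0.239 to 54.1 in FRC PEG (median 9.83), against 0.127 to 0.973 in HEV control and 0.237 to 3.53 in HEV PEG. None of them passed the filter on low counts between the cell types, and of 10 mast cell and eosinophil genes none was either. Among 12 genes of natural killer and innate lymphoid cells 0 of 3 tested passed among controls and 0 of 2 under PEG, and among 5 platelet genes 0 of 4 in each.

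With edgeR and the filter on low counts, PEG changed no member past the threshold in either cell type. In FRC 14 members were tested and 0 called, and 0.0% of all 14595 genes were called by edgeR (989 at an unadjusted p under 0.05, none of them members). DESeq2 called 57 genes and limma-voom 26, again with 0 members. Fitted changes of members in FRC ran from -0.18 ± 1.16 for Csf1r to 1.94 ± 1.36 for Mpeg1. Jchain stood at 0.66 ± 0.90, Ctss at 0.34 ± 0.36, C1qb at 0.19 ± 0.58 and Ptprc at 0.21 ± 0.95. Of genes with a mean of 1 CPM or more, 0.0755% had groups that did not overlap, and 0 of 17 members did. Intestinal epithelium genes were higher on the fitted scale in the same libraries: 20 of 20 tested had a positive log2 change with PEG in FRC (median 1.78, beside 0.014 over all genes), 0 of them past the threshold and 4 at an unadjusted p under 0.05. Their summed level had a median of 186 CPM in FRC control and 838 in FRC PEG. The part of epithelial RNA in the members' values was not tested. In simulated data of this comparison, again with no change at low levels, 47% of 4-fold changes were recovered.

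In HEV, 0.0% of 14308 genes and 0 of 14 members were called (edgeR; 886 genes and 1 member at an unadjusted p under 0.05). That member was Cd28, with 913 reads over the HEV PEG libraries and 1 over the HEV controls, a pooled ratio with a 95% interval of 126 to 27810. Its fitted log2 change of 8.98 ± 1.70 had an unadjusted p of 0.000313 and an adjusted p of 0.64. In libraries 10 to 24 alone the change was 8.88 ± 1.83 (adjusted p 0.75). DESeq2 called 116 genes and 1 member, Cd28 (adjusted p 1.4e-05). With no filter on low counts edgeR called Cd28 higher and C1qa, C1qb, C1qc and Fcgr3 lower under PEG. The C1q reads of HEV controls lie in libraries 8 and 9, which held 734 of 736 C1qb reads, so the C1qb direction rests on those libraries. Lck differed by 0.10 ± 0.44 (adjusted p 0.986), with levels of 21.8 to 61.9 CPM in HEV control and 21.2 to 72.6 in HEV PEG. Ranges did not overlap for 0.906% of genes and for 1 of 21 members, C1qb. As in FRC, all 21 epithelial genes tested had a positive fitted change (median 1.86), 0 past the threshold, and their summed level had a median of 890 CPM in HEV control and 2655 in HEV PEG.

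Whether PEG acted differently in HEV and FRC was tested as an interaction, called by edgeR for 0.011% of 18203 genes and for 0 of 22 members tested, with 4 members at an unadjusted p under 0.05. C1qb came nearest (-9.96 ± 1.74, unadjusted p 1.7e-05, adjusted p 0.068), followed by Fcgr3 (-9.93 ± 2.59, adjusted p 0.201), Cd28 (7.81 ± 2.18, adjusted p 0.21) and C1qc (-4.85 ± 1.93, adjusted p 0.40). C1qb passed without FRC PEG 19, HEV control 17 or HEV control 24 (adjusted p 0.029, 0.016 and 0.0276). DESeq2 called 4 members, namely C1qb, Cd28, Fcgr3 and Cd3g. HEV controls 8 and 9 held 734 of the 736 C1qb reads and all 868 Fcgr3 reads of the HEV controls. In libraries 10 to 24 alone, 0 of 26 members tested were called. The part of the split after library 9 in these values was not tested.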

How the data were processed

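RNA was measured in 24 libraries of sorted FRC or HEV cells. Per the labels' protocols, polyadenylated RNA was copied by template switching, and reads of low quality or from ribosomal RNA were removed; GSNAP and mm9 are named in the submitters' processing notes. The deposited counts are unnormalized unique reads per gene model, per the file headers and values. The deposited RPKM values, scaled by size factors by the authors, entered no test. Entrez identifiers were given symbols for 85.0% of 36528 gene models, which held 97.3% of reads. Counts carry no strand, and 8 members overlap another annotated gene.

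Comparisons used edgeR 4.0.16 (R 4.3.3) with filterByExpr, TMM scaling, a robust quasi-likelihood fit and the inferred pool as a covariate, adjusted over all genes tested (Benjamini-Hochberg). SE came from dividing each fold change (log2) by the root of its F statistic. DESeq2 1.42.0 and limma 3.58.1 (voom) were alternatives, beside other filters, covariates and libraries left out. The fits were tested on simulated data. Described in full are Ptprc, the 2 members of highest mean CPM per lineage and every member past an adjusted p of 0.05; C1qa, Fcgr3 and others named beyond these were chosen after their values were seen. From each other list at most 2 genes with the smallest p are named. Members and lists were chosen with earlier results of these data known. Intervals and floors (3 reads) cover counting error only. Depth ran from 3115003 to 21710946 reads.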

Additional observations from a re-analysis of the deposited data

Results flagged for a closer look

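Of 87 sets of 1 member in 1 group, 24 held a library that passed Dixon's 95% value. The value is for the gap to the nearest neighbour as a share of the group's range. In 22 sets the library was the highest. These genes are mostly near 0 with 1 high library, and no cause was tested. Dixon's 5% rate assumes normally distributed levels, and a group with reads in 1 library only passes by construction. The number of flags thus does not measure an excess over chance. HEV PEG 7, HEV PEG 22 and HEV control 24 each gave 3, and FRC control 4, FRC PEG 10 and FRC control 13 gave 2 each.

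Among B and plasma cell genes, Cd79a stood at 3.173 CPM in FRC control 4. Cd79b stood at 5.888 in FRC control 20 and 7.0 in FRC PEG 10. Ms4a1 was at 2.16 CPM in FRC control 13 and 3.47 in FRC PEG 10, and Mzb1 at 2.16 in FRC control 13 and 1.003 in FRC PEG 18. Pax5 was at 9.38 CPM in HEV control 24 and 1.799 in HEV PEG 23.

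Among T cell genes, Cd3d was at 3.405 CPM in HEV control 24 and Cd3e at 4.345 in HEV PEG 22. Cd3g was at 4.613 in FRC control 21 and 18.565 in HEV PEG 22. Cd4 reached 5.136 in HEV PEG 16, the shallowest library, and Lck 3.934 in FRC PEG 11.

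Among myeloid genes, Lyz2 was at 157.933 CPM in HEV control 24, the library with 4389 CPM of Lyz1. C1qa was at 33.222 and C1qc at 16.37 CPM in HEV PEG 7, and Cx3cr1 at 10.994 there and 9.402 in FRC control 4. Mpeg1 was at 3.023 in FRC control 12 and S100a8 at 1.264 in HEV PEG 22. C1qb was lowest in FRC PEG 19 at 0.126 CPM, and Fcer1g in FRC PEG 3 at 0.0.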

How the results depend on the processing

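No paired analysis was possible because the sources used here do not say which libraries share a mouse. The 6 member calls kept their sign in every alternative that gave them a value, but of all 82 member tests 39 changed sign in at least 1 alternative, none of these called as reported. The Ptprc difference in the permutation test, not significant in any setting, fell to -0.20 for PEG in FRC without FRC PEG 10, to -0.02 for PEG in HEV without HEV control 8 or 17, and to -0.19 between cell types among controls without HEV control 24. The settings that divide libraries 1 to 9 from 10 to 24 were chosen after seeing the data. For PEG in FRC, 177 genes passed with no low-count filter, 57 with DESeq2 and 26 with voom, none with a library left out (0 to 0). For PEG in HEV, 141 passed with no filter (5 members) and 116 with DESeq2 (1 member, Cd28). Between cell types among controls, 2276 genes passed in libraries 10 to 24 alone and 1477 in 1 to 9 alone (0 members); 1 member passed at a count minimum of 50 and 1 with DESeq2, and 0 to 3 with a library left out. Under PEG, 1137 genes passed in libraries 1 to 9 alone; 10 members passed with no filter, 7 with voom, 2 in libraries 10 to 24 alone, 2 in 1 to 9 alone, and 2 to 6 with a library left out. For the difference of the PEG effect, 38 genes (2 members) passed with no filter, 360 (4 members) with DESeq2, 0 with voom, 5 with no covariate, 7 with libraries 1 to 9 against 10 to 24 as covariate, 0 in libraries 10 to 24 alone, 19 in 1 to 9 alone, and 1 to 16 (0 to 1 members) with a library left out. Of 24 libraries, B cell genes were found in 4 at 5 CPM, 14 with 1 member required and 0 with all; plasma cell genes in 5 at 0.2 CPM, 0 at 5 CPM and 17 with 1 member; T cell genes in 7 at 5 CPM, 23 with 1 member and 0 with all. With all members required, macrophage genes were found in 0 and shared myeloid genes in 8; neutrophil genes were found in 2 with 1 member. The cause of these changes was not tested. Depth limits low genes most in HEV PEG 16, without which B cell genes were found in 8 libraries and T cell genes in 11.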
